A study of Mus musculus with 24 samples.

Results

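The genes described here are the glucose transporters Slc2a1 and Slc2a3 and the glycolytic enzymes Hk1, Hk2, Pfkp, Aldoa, Pgk1, Pkm, Ldha and Ldhb, followed by bulk RNA-sequencing through the first days of mouse optic vesicle (OV) organoid differentiation. Every entry of the expression table that carried one of these 10 symbols was taken, which gave 11 of 49705 entries because Aldoa is listed under 2 identifiers. All 11 entries passed the filter on low values (at least 10 normalised counts in at least 3 libraries), as did 21005 entries of the whole table.

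Cells take up glucose through facilitative transporters of the Slc2a family and trap it by phosphorylation with a hexokinase. Phosphofructokinase commits the sugar to glycolysis, aldolase and phosphoglycerate kinase carry it through the middle of the pathway, and pyruvate kinase makes pyruvate. Lactate dehydrogenase interconverts pyruvate and lactate, with the Ldha subunit favouring lactate formation and the Ldhb subunit favouring pyruvate formation. Embryonic stem cells and early neural progenitors are known for a high glycolytic rate, and many genes of the pathway are induced by the hypoxia-inducible factors.

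The series holds 24 libraries, 3 in each of 8 groups, all from 1 mouse embryonic stem cell line (EB5 Rx-GFP K/I) with GFP knocked into the Rax locus. Aggregates were seeded at 4500 cells in differentiation medium, and 2% growth factor-reduced Matrigel was added on day 1. The medium held 1.5% KnockOut serum replacement per the labels, whereas the study's methods name a chemically defined medium for its first organoids. Every library came from 24 pooled organoids sorted for live single cells: days 0 (the day of seeding), 1, 2 and 3 were not separated by GFP, whereas days 4 and 5 were each split into GFP-positive and GFP-negative cells. The gate placed cells of low GFP in the GFP-negative group, so that group is not free of reporter-expressing cells, and day 3 mixes cells of all fates. Summed normalised counts ran from 39849111 to 51587535 per library, and about 36900000 to 54700000 reads were estimated to lie behind them.

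The markers of the labelled cell states were present. Summed counts of 5 eye field genes were 45893 to 47745 in day 4 GFP-positive and 54804 to 57307 in day 5 GFP-positive libraries, against 8869 to 10833 and 8351 to 9094 in the GFP-negative cells of the same days. The 6 pluripotency genes summed to between 92195 and 104491 at day 0 and between 29260 and 38465 at day 3, and their sums were higher in GFP-negative cells (11650 to 13997 on day 4, 4710 to 5534 on day 5) than in GFP-positive cells (1115 to 1923 and 395 to 496). The 6 mesendoderm genes likewise summed to 6524 to 9633 and 3882 to 4830 in GFP-negative cells of days 4 and 5, and to 308 to 675 and 220 to 330 in GFP-positive cells. The sums of the 4 endothelial genes differed by gate too, at 948 to 1804 in GFP-negative and 126 to 252 in GFP-positive cells on day 4. On day 5 they were 1394 to 2075 and 726 to 891. These sums were higher on day 0 (2230 to 4897) and day 1 (3154 to 3516) than in any sorted group. The gate difference in them was therefore not taken as a difference in endothelium. The 4 neuroectoderm genes had a higher sum in GFP-positive cells (32843 to 36127 against 23153 to 28541 on day 4, 26750 to 29867 against 21167 to 22777 on day 5). So did the 4 neuronal genes on day 4 (4818 to 5393 against 3063 to 3351), whose day 5 sums overlapped. The neuronal sums were already 5286 to 6625 at day 0, so they do not mark neurons alone. A sum does not show the direction of each gene in its list. The 4 blood genes summed to at most 122 in 23 libraries and to 1488 in day 5 GFP-negative replicate 2, where Hbb-bh1, an embryonic globin, was at 1122; the member calls of the day 5 gate were the same without that library. Hbb-bh1 was at 0 in all libraries of days 0 to 3 and of day 4 GFP-positive cells, Hba-x in those of days 2 and 3, and no marker of the other 6 lists in all libraries of a group. The part of cell composition in the gate differences given next was not tested, and in bulk samples fewer cells of a type cannot be told apart from less RNA per cell.

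**Figure D1:**
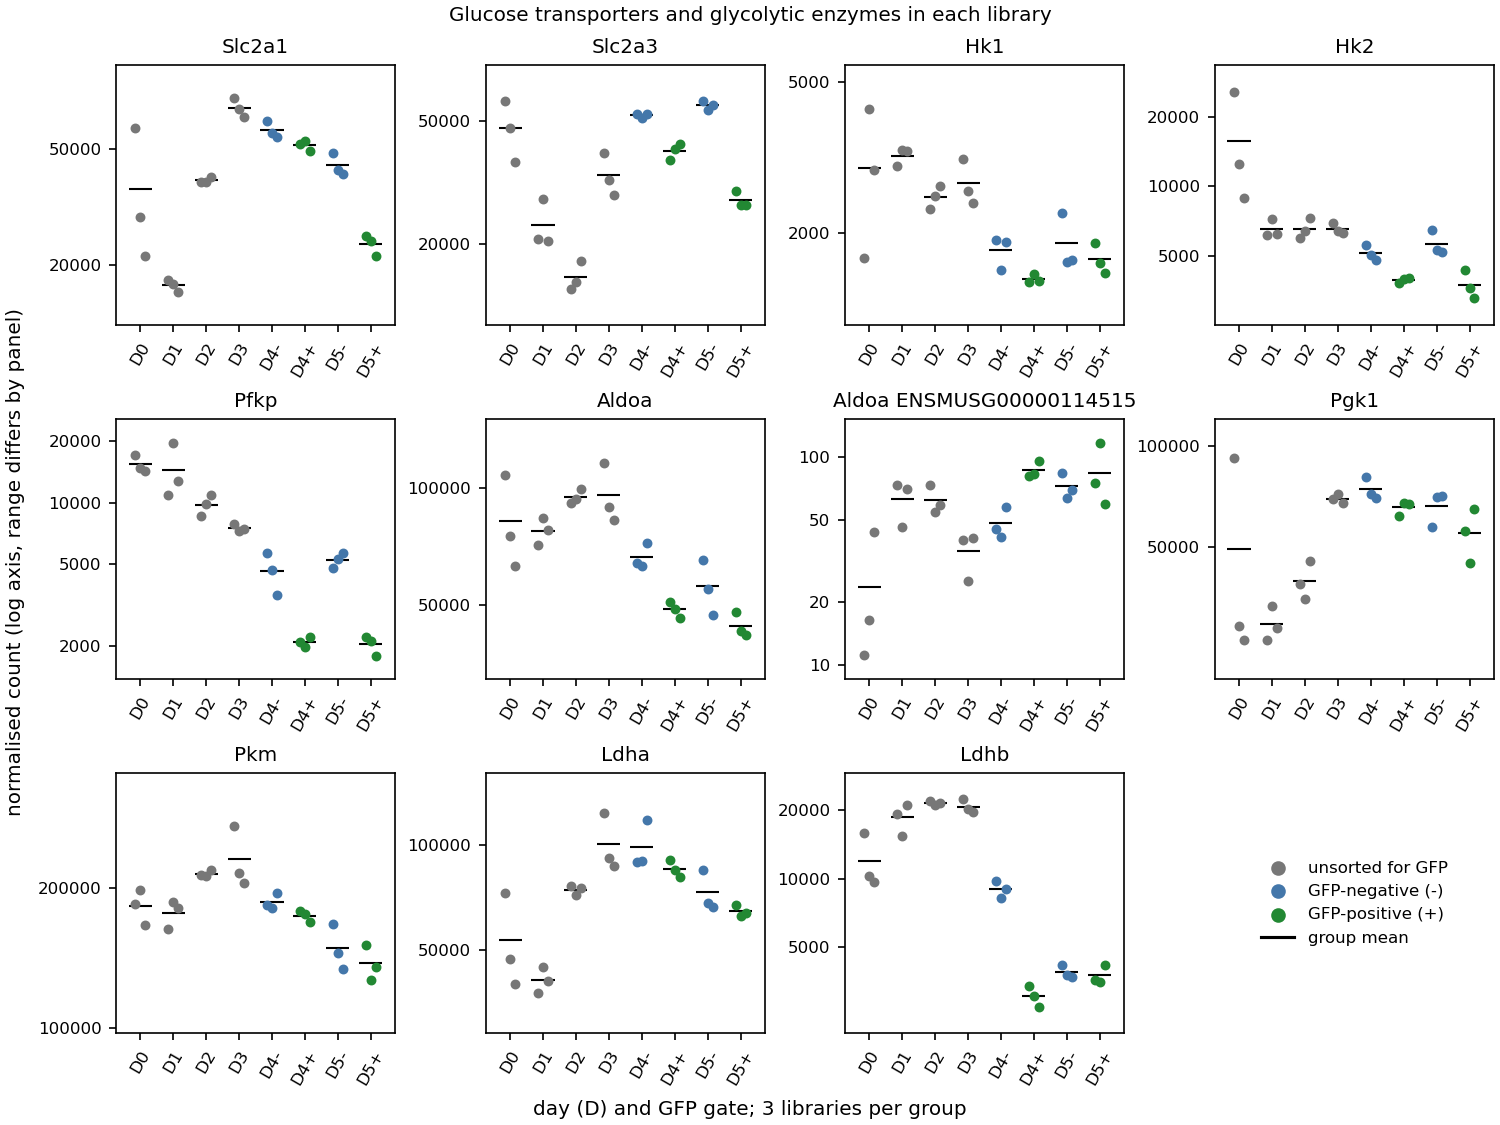
Normalised counts (log axis, its range differing by panel) of each entry in the 24 libraries by day and GFP gate; points are libraries and bars are means of 3. Ldhb and Pfkp drop furthest after day 3, Slc2a1 climbs from day 1 to day 3, and 1 day 0 library lies far above its partners for Pgk1, Hk2 and Slc2a1.

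Together the 11 entries made up 0.784% to 1.62% of all counts in a library. Their share was lowest on day 1 (0.865% ± 0.058, SD, n = 3) among the groups before sorting and highest on day 3 (1.39% ± 0.21), and was 0.843% ± 0.068 in day 5 GFP-positive cells. Scaled to the length of the longest coding transcript, Pkm was the most abundant entry at day 3 with a mean level of 94964 counts per kb, above Aldoa at 62125 and Ldha at 55655. Hk1 had the lowest level per kb among the main entries at that stage, at 632, and Hk2 stood at 1191. Gene-level values do not separate the M1 and M2 splice forms of Pkm, and reads of Aldoa, Pgk1 and Ldha, which have similar processed copies in the genome, are uncertain to the extent that the authors' quantification shared them. The smaller Aldoa entry (ENSMUSG00000114515, chr7:126800790-126809108, directly upstream of the main Aldoa entry on the same strand) had group means of 32.0 to 117 counts per kb, against 28590 to 62125 per kb for the main entry.

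A single day 0 library stood apart in many of these genes. In day 0 replicate 1, Pgk1 (the first ATP-forming enzyme of the pathway, chrX:106187100-106203699, mm10) was at 92201 normalised counts, against 29194 and 26453 in replicates 2 and 3. Hk2, the inducible hexokinase, was at 25752 against 12479 and 8890, and Slc2a1 at 58877 against 29157 and 21417. Replicate 1 was the highest of the 3 day 0 libraries for 8 of the 11 entries and the lowest for 2, Hk1 and the smaller Aldoa entry, with a median log2 difference of 0.65 from the mean of the other two. Among 15 genes of the hypoxia response it was the highest for 13, with a median difference of 1.39, whereas over all 21005 genes it was the highest for 42.7% with a median difference of 0.00. The mitophagy receptor Bnip3 had the largest difference in the hypoxia list. Comparisons of the members with day 0 are therefore also given without this library, an alternative chosen after seeing the data. Because all comparisons share 1 estimate of the spread, leaving it out also changed the other comparisons.

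**Figure D2:**
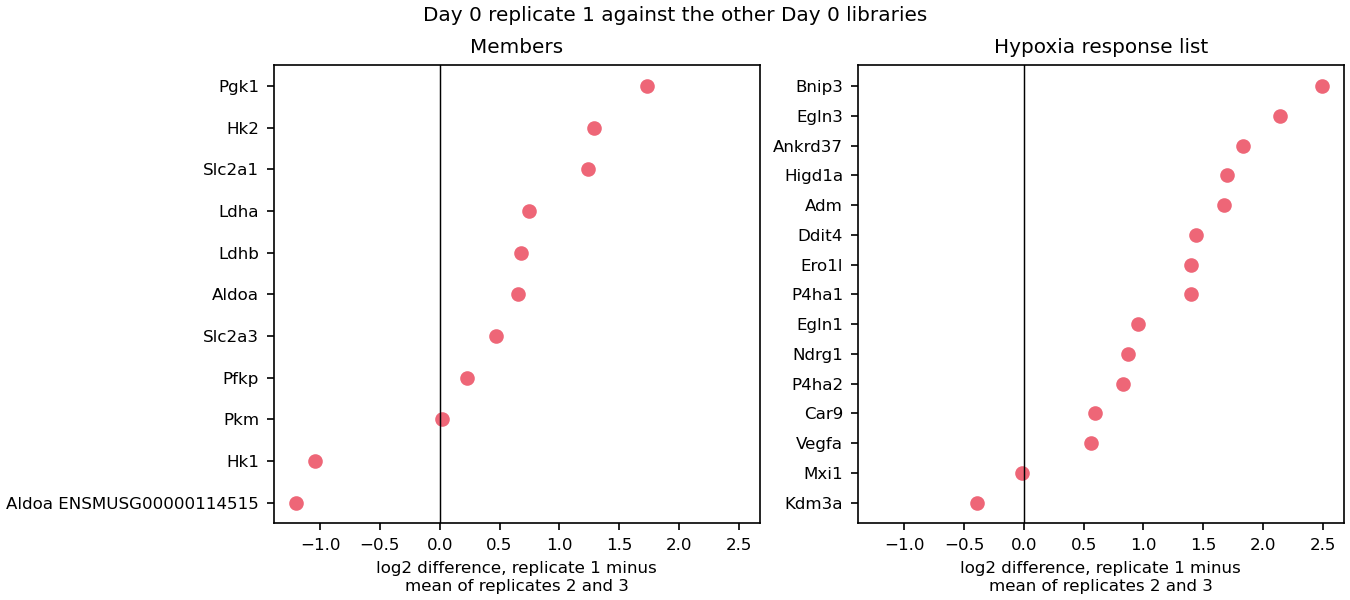
Log2 difference of day 0 replicate 1 from the mean of day 0 replicates 2 and 3, for the 11 entries (left) and the 15 measured genes of the hypoxia response (right). Pgk1, Hk2 and Slc2a1 lie above 1 and Hk1 and the smaller Aldoa entry below -1, while 13 of the 15 hypoxia genes lie to the right of 0.

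The first 3 days were compared step by step on log2(normalised count + 1) with limma, and a gene passed when its Benjamini-Hochberg adjusted p-value was under 0.05. From day 0 to day 1, 3 of 11 entries fell (Hk2, Slc2a3, Slc2a1) and 2 rose (Ldhb and the smaller Aldoa entry), against 4.79% of all genes tested that fell and 5.23% that rose. Slc2a1, the widely expressed transporter GLUT1 (chr4:119108711-119137983), went from 58877, 29157 and 21417 at day 0 to 17645, 17111 and 16144 at day 1, with no overlap between groups (log2-fold-change -0.97 ± 0.21, SE, limma adjusted p = 0.00479). Slc2a3, the high-affinity transporter GLUT3 (chr6:122727809-122801640), went from 57988, 47598 and 36881 to 20802, 27919 and 20453 (log2-fold-change -1.03 ± 0.15, adjusted p = 0.000104). Both groups of values again stayed apart. Hk2 (chr6:82725025-82774454) moved from the values given above to 6151, 7235 and 6231 (log2-fold-change -1.12 ± 0.23, adjusted p = 0.00271). Without day 0 replicate 1 the same 5 entries passed (14% of all genes passed in that fit), with smaller falls of 0.56 on the log2 scale for Slc2a1, 0.88 for Slc2a3 and 0.69 for Hk2, and rises of 0.89 for Ldhb (0.67 with it) and 1.17 for the smaller Aldoa entry (1.58 with it). In a fit of only the day 0 and day 1 libraries none of the 11 passed, with adjusted p-values from 0.12 upwards, and 0.415% of all genes did. The hypoxia response list moved in the same step: 9 of its 15 genes fell, Mxi1 rose, and its median log2-fold-change was -0.95, against 0.00 over all genes tested and -0.14 over the 11 entries. With day 0 replicate 1 left out, 10 of the 15 fell, 1 rose and the median was -0.65, and in the fit of only the day 0 and day 1 libraries none of the 15 passed. The Mxi1 call was also lost without day 0 replicate 3 or day 1 replicate 1 or 2 and with no filter.

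From day 1 to day 2, Slc2a1 and Ldha rose and Slc2a3 and Pfkp fell, while 9.03% of all genes rose and 7.54% fell. Slc2a1 reached 38409, 38293 and 40103 (log2-fold-change 1.20 ± 0.21, limma adjusted p = 0.000457), and Ldha (chr7:46841475-46855627) went from 37740, 44762 and 40794 to 76282, 72209 and 75669 (log2-fold-change 0.87 ± 0.18, adjusted p = 0.00171). Each day 2 value of these 2 genes, which had already passed, lay above each day 1 value. Slc2a3 fell further, to 14302, 15132 and 17619 (log2-fold-change -0.55 ± 0.15, adjusted p = 0.0145). The transporters thus moved in opposite directions in this step. The Slc2a3 call was lost without day 1 replicate 2, day 2 replicate 1 or day 2 replicate 2 (adjusted p up to 0.119), and the Pfkp call (log2-fold-change -0.52 ± 0.18, adjusted p = 0.048) was lost in 5 of 6 fits that left out 1 library, under the replicate block and under both other scalings. Leaving out day 0 replicate 1 added Pgk1 to the genes that passed, while the share of all genes that passed went from 16.6% to 24.3%.

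From day 2 to day 3 both transporters rose and no other entry passed, with 7.46% of all genes rising and 6.99% falling; with equal library totals the share of calls that were higher moved from 51.6% to 61.1%. Slc2a1 reached 74410, 68599 and 64302, its highest group (log2-fold-change 0.83 ± 0.21, limma adjusted p = 0.0123). Slc2a3 returned to 39514, 32286 and 28845 (log2-fold-change 1.09 ± 0.15, adjusted p = 5.2e-05). Day 2 and day 3 did not overlap for either transporter, both of which had already passed. Pgk1 went from 38785, 35150 and 45501 to 69383, 72144 and 67604 without overlap, but its log2-fold-change of 0.82 ± 0.29 missed the threshold (adjusted p = 0.0625); without day 0 replicate 1 it passed (adjusted p = 8.6e-05), as did Ldha (0.42, adjusted p = 0.025), in a fit where 24.3% of all genes passed against 14.4% with that library.

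Set against day 0, day 3 had 8 of 11 entries past the threshold, where 21.1% of all genes were higher and 22.6% lower. Slc2a1 (log2-fold-change 1.05), Ldha (0.95), Ldhb (0.83), Pgk1 (0.75) and Pkm (0.33) were higher, and Hk2 (-1.11), Pfkp (-1.03) and Slc2a3 (-0.49) were lower. Without day 0 replicate 1, 9 passed (50.2% of all genes, against 43.6% with it), of which 7 were shared: Slc2a3 no longer passed (-0.33, limma adjusted p = 0.0547), Hk1 was lower (-0.39) and Aldoa higher (0.47), while Pgk1 reached 1.33 and Hk2 shrank to -0.68. The other shared entries were then at 1.46 (Slc2a1), 1.20 (Ldha), 1.06 (Ldhb), 0.33 (Pkm) and -0.95 (Pfkp). In a fit of only these 2 groups 3 entries passed, with 26.6% of all genes. The Pgk1 call was lost in 5 of 6 fits without 1 library and kept only without day 0 replicate 1. Slc2a3 was also lost without day 3 replicate 3, and Pkm without day 0 replicate 3, day 3 replicate 1 or day 3 replicate 2 and under quantile normalisation.

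The step from day 3 to day 4 GFP-positive cells, in which the eye field markers come on, brought the largest falls among consecutive steps for Ldhb and Pfkp. Of the 11 entries 6 fell and 1 rose, where 20.9% of all genes fell and 17.1% rose (the share of calls that were higher, 45.0%, was 50.8% under quantile normalisation and 51.2% with equal library totals); at the thresholds of the study (a change of more than 1.5 on the log2 scale in either direction with an adjusted p below 0.001), 2 entries passed, Ldhb and Pfkp, against 10.7% of all genes. Ldhb (chr6:142490249-142507957) went from 22332, 20172 and 19653 to 3356, 3055 and 2726, a 6.81-fold fall (log2-fold-change -2.77 ± 0.15, limma adjusted p = 6.18e-12). Pfkp, the platelet-type phosphofructokinase (chr13:6579768-6648777), went from 7882, 7298 and 7474 to 2082, 1972 and 2214 (log2-fold-change -1.85 ± 0.18, adjusted p = 2.92e-08). In both genes the lowest day 3 library was more than 3 times the highest day 4 GFP-positive library. Aldoa (chr7:126795234-126800751) fell from 115892, 89697 and 83104 to 51029, 48860 and 46378 (log2-fold-change -0.97 ± 0.16, adjusted p = 7.08e-05). Hk1, the constitutive hexokinase (chr10:62268855-62379908), was 2397 to 3136 at day 3 and 1490 to 1558 in GFP-positive cells (log2-fold-change -0.83 ± 0.21, adjusted p = 0.00289), and Hk2 went from 6310 to 6948 down to 3802 to 4017 (-0.74 ± 0.23, adjusted p = 0.0144). The pyruvate kinase gene Pkm (chr9:59656368-59679375) fell by 0.39 on the log2 scale (adjusted p = 0.0205), but this value was 0.0075 under quantile normalisation, lost its call with equal library totals, and lost it without day 3 replicate 1 or day 4 GFP-positive replicate 3. Ldha, the partner of Ldhb, was at 123772, 92061 and 87209 at day 3 and 90809, 84949 and 81153 in GFP-positive cells (log2-fold-change -0.22 ± 0.18, adjusted p = 0.36), and Pgk1 and Slc2a3 did not pass either. Slc2a1 had a log2-fold-change of -0.43 (adjusted p = 0.128) and passed without day 0 replicate 1 (adjusted p = 0.0016), where 46.4% of all genes passed against 37.9%. The smaller Aldoa entry rose, at 25 to 41 counts on day 3 and 81 to 96 in GFP-positive cells.

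In day 4 GFP-negative cells, 3 entries fell relative to day 3 (Ldhb, Pfkp and Aldoa) and Slc2a3 rose, where 9.01% of all genes fell and 9.49% rose; with equal library totals the share of calls that were higher moved from 51.3% to 61.9%. Ldhb was at 9704, 8192 and 8995 (log2-fold-change -1.21 ± 0.15, limma adjusted p = 6.05e-06) and Pfkp at 5719, 4688 and 3544 (-0.73 ± 0.18, adjusted p = 0.00536). Both genes lay below every day 3 library and above every day 4 GFP-positive library. Slc2a3 rose to 52677, 51264 and 52568 (log2-fold-change 0.65 ± 0.15, adjusted p = 0.00369). The Aldoa call (-0.52, adjusted p = 0.0312) was lost without day 3 replicate 1 or 2 or without day 4 GFP-negative replicate 1 or 2, and under quantile normalisation. Hk1 (-0.58) and Hk2 (-0.35) passed as well without day 0 replicate 1, where 26.5% of all genes passed against 18.5%. Both day 4 comparisons share the day 3 libraries.

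**Figure D3:**
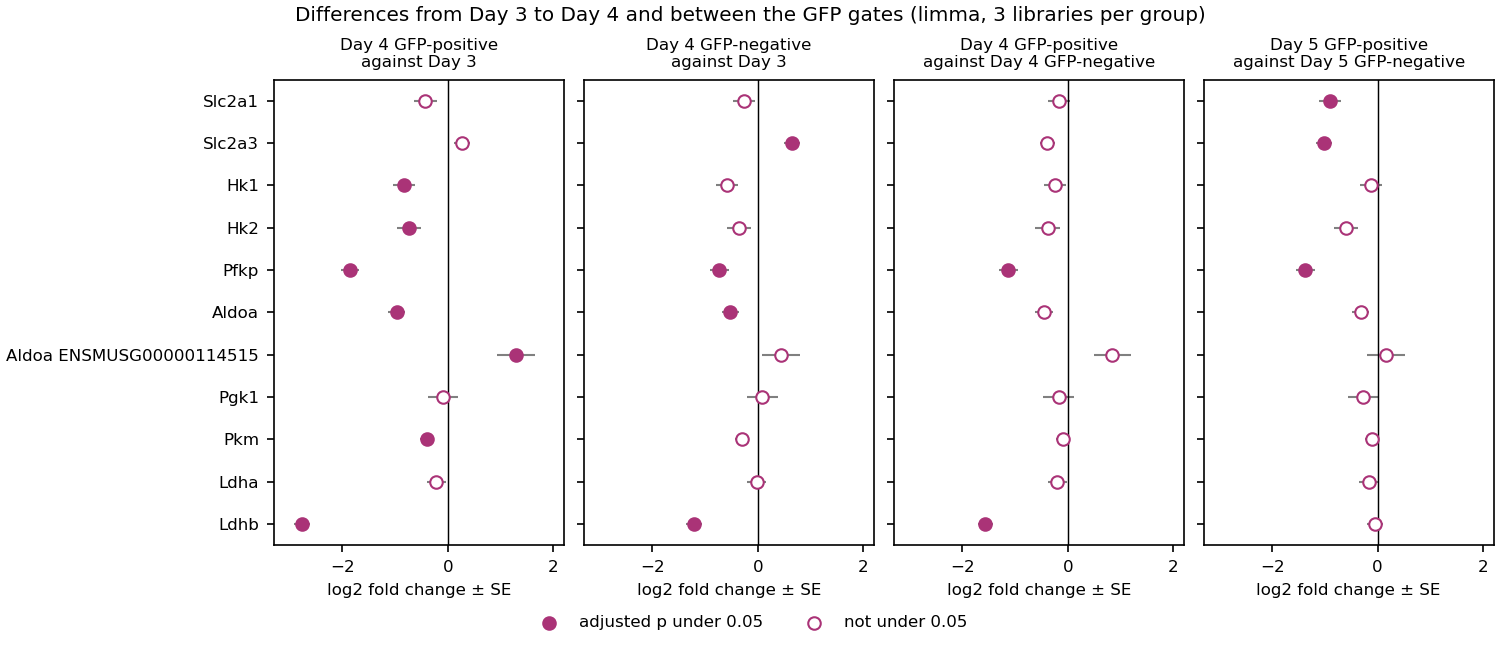
Log2-fold-change ± SE (limma) of the 11 entries for day 4 GFP-positive and GFP-negative cells against day 3 and for the 2 GFP gates; filled points passed an adjusted p of 0.05. Ldhb lies at -2.77, -1.21 and -1.56 in the first 3 panels and at -0.05 in the last, where Slc2a1, Slc2a3 and Pfkp pass.

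The 2 gates were then compared within each day. On day 4, GFP-positive cells held less Ldhb and Pfkp than GFP-negative cells did, and no entry was higher, where 11.3% of all genes were lower and 4.43% higher; at the study thresholds Ldhb passed, against 3.96% of all genes. The log2-fold-change was -1.56 ± 0.15 for Ldhb (limma adjusted p = 1.59e-07) and -1.13 ± 0.18 for Pfkp (adjusted p = 7.35e-05). Quantile normalisation moved the share of calls that were higher from 28.2% to 38.7% without ending either call. Slc2a3 (-0.38), Hk2 (-0.38) and Aldoa (-0.45) passed too once day 0 replicate 1 was left out and the share of all genes that were lower was 14.3%.

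On day 5, Pfkp, Slc2a3 and Slc2a1 were lower in GFP-positive cells and no entry was higher, where 12.3% of all genes were lower and 3.78% higher. Slc2a1 was at 48413, 42401 and 40772 in GFP-negative and 25071, 24011 and 21344 in GFP-positive cells (log2-fold-change -0.90 ± 0.21, limma adjusted p = 0.0044). Slc2a3 was at 58191, 54163 and 56360 against 29808, 26713 and 26781 (-1.02 ± 0.15, adjusted p = 3.23e-05), and Pfkp at 4794, 5333 and 5677 against 2203, 2109 and 1793 (-1.37 ± 0.18, adjusted p = 5.72e-06). None of these 3 pairs of groups overlapped, which describes entries that had already passed and is not a further test. Ldhb was at 4171, 3750 and 3683 in GFP-negative and 3581, 3496 and 4185 in GFP-positive cells, overlapping (log2-fold-change -0.05 ± 0.15, adjusted p = 0.90). Quantile normalisation moved the share of calls that were higher from 23.6% to 35.2% and added Hk2 and Aldoa to the 3 entries, whereas equal library totals moved it to 13.7%. Without day 0 replicate 1, Hk2 was added (-0.60, adjusted p = 0.0011), with 14.9% of all genes lower.

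The change of the gate difference from day 4 to day 5 was tested as an interaction term. Ldhb was the only entry that passed, at 1.51 ± 0.21 on the log2 scale (limma adjusted p = 0.00063), and it passed the study thresholds; of all genes, 0.528% had a positive and 0.571% a negative term, and 0.109% passed the study thresholds. With equal library totals the share of positive calls moved from 48.1% to 32.9%, and under quantile normalisation it was 51.2%. The Slc2a1 term was -0.73 (adjusted p = 0.40) and the Slc2a3 term -0.64 (adjusted p = 0.21). Neither passed, so the gate differences of the transporters on days 4 and 5 are not shown to differ in the fit of all libraries. In a fit of the 12 sorted libraries alone both passed (adjusted p = 0.00978 and 0.00843), as they did under quantile normalisation, and Slc2a1 passed without day 0 replicate 1 (adjusted p = 0.0052). Those fits called 3.81%, 1.14% and 3.14% of all genes, against 1.10% in the fit of all libraries.

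Between the 2 days, Slc2a1 and Slc2a3 fell in GFP-positive cells, where 5.24% of all genes fell and 4.57% rose. Slc2a1 fell from 51985, 52974 and 49188 to the day 5 values above (log2-fold-change -1.13 ± 0.21, limma adjusted p = 0.00105), and Slc2a3 from 37427, 40470 and 42168 (-0.53 ± 0.15, adjusted p = 0.0272). The Slc2a3 call was lost in 4 of 6 fits without 1 library (day 4 or day 5 GFP-positive replicate 2 or 3; adjusted p up to 0.0996). In GFP-negative cells Ldhb fell (log2-fold-change -1.21 ± 0.15, adjusted p = 1.42e-05) and no other entry passed, where 4.45% of all genes fell and 5.72% rose. Equal library totals shifted the median of all genes by 0.10 in this comparison and moved the share of calls that were higher from 56.2% to 72.2%, and quantile normalisation moved it to 48.3%. Ldhb kept its call under both. On day 5 the Ldhb counts of GFP-negative cells lay within the range of GFP-positive cells. When day 0 replicate 1 was left out, 4 entries passed in each of the comparisons, all lower: Pkm and Ldha joined in both, and Slc2a1 joined in GFP-negative cells. In that fit 7.78% and 8.37% of all genes were lower.

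Over the whole course, from day 0 to day 5 GFP-positive cells, 8 of 11 entries fell and the smaller Aldoa entry rose, where 32.1% of all genes fell and 29.3% rose. At the study thresholds 4 entries passed (Pfkp, Hk2, Ldhb and the smaller Aldoa entry), against 26.2% of all genes. Without day 0 replicate 1, Hk2 (-1.499) and Ldhb (-1.41) no longer met the limit of 1.5 and 2 entries were left, Pfkp and the smaller Aldoa entry, against 26.3% of all genes. Pfkp fell most, 7.60-fold, from 17161, 14839 and 14398 to 2203, 2109 and 1793 (log2-fold-change -2.93 ± 0.18, limma adjusted p = 5.67e-12). Hk2 fell by 1.93 on the log2 scale, Ldhb by 1.63, Aldoa by 0.86, Slc2a3 by 0.75, Hk1 by 0.70, Slc2a1 by 0.51 and Pkm by 0.41. Quantile normalisation and equal library totals shifted the median of all genes by 0.15 and 0.14 in this comparison, moved the share of calls that were higher from 47.7% to 52.6% and 54.1%, and lost the calls of Slc2a1 and Pkm. Without day 0 replicate 1, Slc2a1 did not pass (-0.09, adjusted p = 0.487), and Pgk1 (0.97) and Ldha (0.57) were higher. The calls of the other entries stayed, at -2.85 (Pfkp), -1.05 (Hk1), -0.64 (Aldoa), -0.60 (Slc2a3), -0.40 (Pkm) and 1.55 (the smaller Aldoa entry). Slc2a1 was also lost without any 1 of the day 5 GFP-positive libraries, and Hk1 without day 0 replicate 2 (-0.39, adjusted p = 0.061). In a fit of only these 2 groups the calls of Slc2a1, Hk1 and Pkm were lost, and 49.7% of all genes passed against 61.4%.

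In the lactate dehydrogenase pair the ratio of Ldha to Ldhb was 4.46 at day 0 and 2.23 at day 1 (ratio of geometric means), 3.48 at day 2 and 4.82 at day 3. It was 11.0 in day 4 GFP-negative and 28.2 in day 4 GFP-positive cells, and 18.9 and 17.3 in the corresponding cells of day 5. On the log2 scale the day 4 GFP-positive libraries lay between 4.76 and 4.90, above the highest library of any other group. The ratio of Slc2a1 to Slc2a3 was 0.74 on day 1, 2.49 on day 2 and 2.07 on day 3, then 1.11 and 1.28 in GFP-negative and GFP-positive cells of day 4 and 0.78 and 0.84 on day 5. Hk1 to Hk2 stayed between 0.33 and 0.49 from day 1 on. At day 0 it was 0.20, with a log2 ratio of -3.91 in replicate 1 and a highest value of -1.55. These ratios are of normalised counts without length scaling, so they serve to compare groups and not the 2 genes of a pair, and they were not tested.

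**Figure D4:**
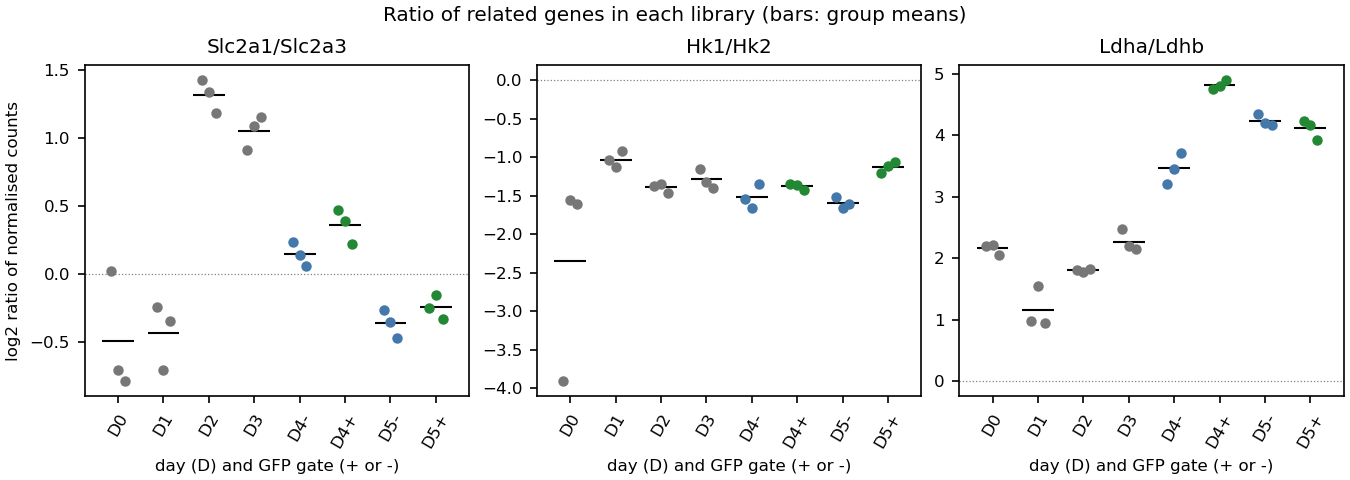
Log2 ratio of normalised counts for Slc2a1/Slc2a3, Hk1/Hk2 and Ldha/Ldhb in each library by day and GFP gate (grey unsorted for GFP, blue GFP-negative, green GFP-positive); bars are means of 3 libraries and the dotted line marks equality. Ldha/Ldhb peaks in day 4 GFP-positive cells between 4.76 and 4.90, and day 0 replicate 1 lies apart at -3.91 for Hk1/Hk2.

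Promoter sequences of the members were searched for ACGTG and GCGTG, the core letters that the hypoxia-inducible factors are known to bind. RefSeq windows on GRCm38.p6, from 250 bases before to 50 after an annotated start, were given for 9 of the 10 genes (14 windows). ACGTG was found on either strand in 8 of 14 windows, compared with 19.6% of 32851 windows genome-wide, and GCGTG in 6 of 14 windows, compared with 32.4%. CACGTG reads as ACGTG on both strands and was counted on each, which gave 5 matches in the first of 2 Ldha windows, 2 each for Hk2, Pgk1, 1 of 2 Hk1 windows and 1 of 2 Pkm windows, 1 for Slc2a1 and none for Ldhb or Pfkp. Of the 3 Aldoa windows, 2 overlap and hold 1 match that is the same site. GCGTG had 4 matches for Pfkp, the most of any member window, and 1 for Ldhb. The Ldha and Ldhb windows are shown because the genes diverged after day 3, and those of Slc2a1 and Hk2 because these genes stood high in day 0 replicate 1. ACGTG and its reverse complement CACGT are in capitals, each sequence runs 5′ to 3′ on the strand of its gene, and the windows are chr7:46845554-46845853 (plus), chr6:142507908-142508207 (minus), chr4:119108495-119108794 (plus) and chr6:82774405-82774704 (minus).
Ldha: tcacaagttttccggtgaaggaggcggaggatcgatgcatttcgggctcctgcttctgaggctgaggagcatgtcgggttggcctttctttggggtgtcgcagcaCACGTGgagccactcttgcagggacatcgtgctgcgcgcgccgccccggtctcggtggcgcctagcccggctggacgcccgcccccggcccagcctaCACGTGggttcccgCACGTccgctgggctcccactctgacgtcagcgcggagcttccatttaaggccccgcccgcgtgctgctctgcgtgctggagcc
Ldhb: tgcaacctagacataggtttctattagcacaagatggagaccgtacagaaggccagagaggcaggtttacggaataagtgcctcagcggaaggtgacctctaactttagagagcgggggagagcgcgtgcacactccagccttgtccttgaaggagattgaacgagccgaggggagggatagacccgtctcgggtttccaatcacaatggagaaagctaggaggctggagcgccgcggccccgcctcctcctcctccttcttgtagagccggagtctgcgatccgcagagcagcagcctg
Slc2a1: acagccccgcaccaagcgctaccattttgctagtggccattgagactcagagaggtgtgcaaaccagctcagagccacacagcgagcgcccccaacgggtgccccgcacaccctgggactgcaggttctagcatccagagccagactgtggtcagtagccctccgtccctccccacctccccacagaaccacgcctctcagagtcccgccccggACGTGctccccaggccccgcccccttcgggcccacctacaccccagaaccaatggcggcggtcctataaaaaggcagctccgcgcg
Hk2: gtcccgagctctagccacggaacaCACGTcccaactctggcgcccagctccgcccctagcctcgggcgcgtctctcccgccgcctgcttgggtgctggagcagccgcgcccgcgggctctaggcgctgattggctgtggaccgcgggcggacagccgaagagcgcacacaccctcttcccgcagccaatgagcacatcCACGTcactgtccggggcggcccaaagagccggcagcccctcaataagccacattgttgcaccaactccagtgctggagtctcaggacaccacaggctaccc
A match gives the letters only and no evidence of binding.

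The other genes of the pathway were read from lists. Of 18 tested further glycolysis enzymes, 6 fell and 3 rose from day 3 to day 4 GFP-positive cells, where 20.9% of all genes fell and 17.1% rose, with a median log2-fold-change of -0.20, against -0.01 over all genes tested and -0.43 over the 11 entries. Without day 3 replicate 1 only 3 of the 18 fell, where 18.8% of all genes did. The 6 falls count Eno1 and Eno1b separately, and how far the authors' quantification shared reads between these entries is not known. Gpi1, glucose-6-phosphate isomerase, fell by 0.67 on the log2 scale and the neuronal enolase Eno2 rose by 0.81, whereas Gapdh did not pass (-0.24). Hkdc1, a hexokinase domain protein, fell by 3.26 and was lower in GFP-positive cells on both days (-4.18 and -3.62), from means of 222 and 337 counts in GFP-negative cells to 12.0 and 27.0. Pfkl, the liver-type phosphofructokinase, rose by 0.73 from day 1 to day 2, the step in which Slc2a1 and Ldha rose.

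Among 8 tested further sugar transporter family genes (Slc2a and Slc5a, not all of them chiefly glucose carriers), 3 rose and none fell from day 3 to day 4 GFP-positive cells (median 0.45). Of all genes 17.1% rose. Slc2a4, the insulin-responsive transporter GLUT4, rose by 1.37 on the log2 scale in that step and was higher in GFP-positive cells on day 5, with 491 to 760 counts against 243 to 317 (log2-fold-change 1.15 ± 0.29, limma adjusted p = 0.00765). Slc2a6 (0.73) and Slc2a10 (1.32) also rose, the latter losing its call in each fit that left out 1 library. From day 0 to day 5 GFP-positive cells 4 of the 8 rose and 2 fell, where 29.3% of all genes rose and 32.1% fell, and the same 6 passed without day 0 replicate 1.

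Among genes that govern the fate of pyruvate and lactate, 9 of 17 fell from day 3 to day 4 GFP-positive cells and 2 rose, against the 20.9% and 17.1% of all genes, with a median of -0.30; the rises were 0 or 1 in every fit that left out 1 library of these groups, and the falls 7 to 9. Pdk1, a kinase that inhibits pyruvate dehydrogenase, fell from a mean of 10262 counts to 1416 (log2-fold-change -2.86 ± 0.08, limma adjusted p = 5.35e-16), and was at 4424 in GFP-negative cells. Pdk4 fell by 4.46, from 109 to 166 counts to 1.8 to 17.3. The monocarboxylate transporter Slc16a1 was lower in GFP-positive cells on day 4 (-0.83) and day 5 (-1.04). The Pdk1 gate difference was -1.64 on day 4 and -0.84 on day 5, both past the threshold, and the interaction term was 0.80 ± 0.12 (adjusted p = 0.000857). Mpc1, a subunit of the mitochondrial pyruvate carrier, was also down on day 4 in GFP-positive cells, with a fall of 1.29 from day 3.

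Of 10 regulators of glycolytic flux, 4 fell and 2 rose from day 3 to day 4 GFP-positive cells (median -0.08), with 20.9% of all genes falling and 17.1% rising. Epas1, which encodes HIF-2 alpha, fell by 2.85 on the log2 scale and was lower in GFP-positive cells on day 4 (-3.27) and day 5 (-3.77), while Hif1a did not pass in either gate comparison (-0.03 and 0.14). Pfkfb4, a kinase that makes the activator fructose 2,6-bisphosphate, rose by 1.42. In the pentose phosphate pathway 2 of 7 genes fell in that step, G6pdx (-0.55) and Pgd (-0.43), a count near the 20.9% of all genes. The hypoxia response list had 6 of 15 genes lower and 2 higher (median -0.08; 3 lower and none higher without day 4 GFP-positive replicate 3, none higher without day 3 replicate 2), with Adm (-2.61) and Ndrg1 (-1.88) the furthest down. Between the gates 5 of 15 were lower in GFP-positive cells on day 4 (10 without day 0 replicate 1) and 2 on day 5, and none was higher; of all genes 11.3% and 12.3% were lower. Neither count was stable: on day 4 it was 1 without GFP-positive replicate 1, 2 without GFP-positive replicate 3 or GFP-negative replicate 1 or 3, 3 without replicate 2 of either gate, 3 with no filter or no variance trend, and 9 of 14 in a fit of the compared groups alone. The share of all genes that were lower was 14.3% without day 0 replicate 1, 12.7% in the compared groups alone, and 8.97% to 10.0% in the fits without 1 library of these groups. With no filter it was 5.71%, and with no variance trend 11.1%. On day 5 it was 7 without day 0 replicate 1, with equal library totals and in the compared groups alone, 4 under quantile normalisation, and 1 without GFP-positive replicate 3, in fits where 14.9%, 13.7%, 13.7%, 9.05% and 10.5% of all genes were lower. Ndrg1 was lower on both days (-2.14 and -2.53), and so was Adm (-2.05 and -2.27), whose call was lost without day 4 GFP-negative replicate 1 or 3 or day 4 GFP-positive replicate 1 or 3 on day 4, and without day 5 GFP-positive replicate 3 on day 5. With a pseudocount of 5 the day 4 value of Adm, which had means of 2.77 and 13.5 counts in the gates, was -1.25 (adjusted p = 0.063).

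**Figure D5:**
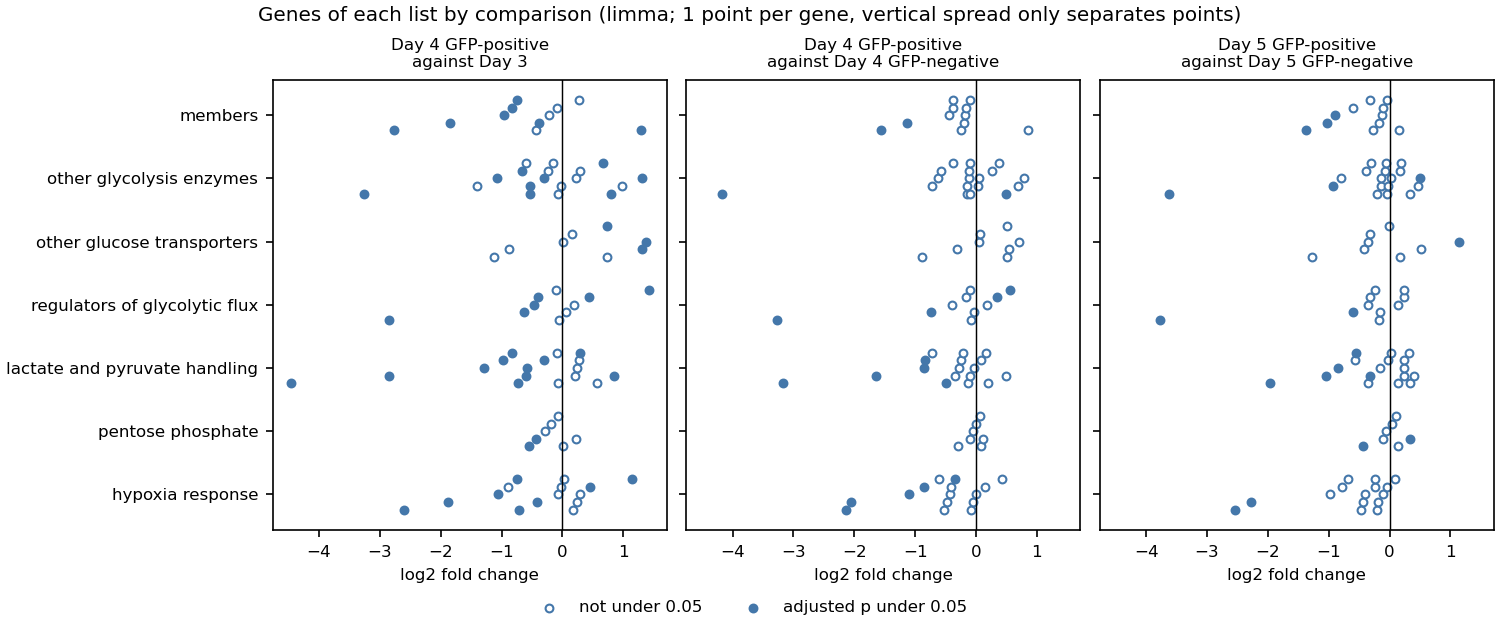
Log2-fold-change (limma) of every tested gene in 7 lists, for day 4 GFP-positive cells against day 3 and for the GFP gates of days 4 and 5; each point is a gene and filled points passed an adjusted p of 0.05. Most genes lie near 0, and Hkdc1, Epas1 and Pdk4 reach furthest to the left between the day 4 gates, at -4.18, -3.27 and -3.17.

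The genes whose profile was most like Pfkp and Ldhb, the members with the widest range of group means, were sought by Pearson's r over the 24 libraries among 13083 genes with a mean of at least 100 counts. For Pfkp these were Aire (0.99), Triml1 (0.98) and Triml2 (0.98). For Ldhb they were Ftl1-ps2 (0.97), Vsig10 (0.96) and Ndufaf7 (0.96), of which Ftl1-ps2 is a pseudogene whose reads may come from its parent gene. Among the members, Aldoa and Ldhb (0.91), Slc2a1 and Ldha (0.89) and Aldoa and Pkm (0.85) had the highest coefficients, and Hk2 and the smaller Aldoa entry the lowest (-0.83). The libraries share their days and gates, so these coefficients describe the time course and are not independent evidence.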

How the data were processed

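Bulk RNA-sequencing libraries (TruSeq, NextSeq 550) were quantified by the authors against mm10 with kallisto 0.43.1 (per the submitters' processing notes) and the estimated counts were deposited after DESeq2 normalisation, which gives a signal (normalised count) per gene with no raw counts. Low values were whole multiples of 1 read (within 0.1) for 35.8% to 76.2% of genes only, so no count model was fitted. Whether strand was used is not given in the sources used here. The 9 columns of gene calls by the authors (true or false) were not used.

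Here log2(value + 1) of 21005 genes was fitted once over 24 libraries with limma 3.58.1 in R 4.3.3 (8 group means, trended empirical Bayes, 16 residual degrees of freedom), with Benjamini-Hochberg adjustment within each of 12 comparisons. The filter was 10 in 3 libraries, and the script was tested on simulated data. The precision is set by this replicate spread (median residual SD 0.31). The members and lists were chosen with earlier results of these data known. Beside the members, the text names from each list at most the 2 largest rises and falls that passed, the genes most like 2 members, and others chosen after their values were seen (Gapdh, Hif1a, Bnip3, Gpi1, Pfkl, Slc2a6, Slc16a1, Mpc1). Alternatives were other pseudocounts, quantile normalisation, equal library totals, no filter, no variance trend, a replicate block, the compared groups alone, the stricter thresholds of the study and leaving out each library. Libraries are biological triplicates per the study, and both gates of a day were sorted from the same triplicate samples, with no statement that their numbers match. Annotation positions matched GENCODE M21.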

Additional observations from a re-analysis of the deposited data

Results flagged for a closer look

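The gate difference of Ldhb changed between days. The log2 difference between GFP-positive and GFP-negative cells was -1.56 on day 4 and -0.05 on day 5, and the test of the change itself gave 1.51 ± 0.21 (SE, 3 libraries per group, limma adjusted p = 0.00063). The value stayed between 1.43 and 1.59 in 12 fits that each left out 1 library, with adjusted p-values up to 0.00311. On day 4 the 3 GFP-positive libraries lay below the 3 GFP-negative ones, and on day 5 the groups overlapped. It was the only entry of 11 for which this change passed the test in the fit of all libraries.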

How the results depend on the processing

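Of 48 member tests that passed over the 12 comparisons, 38 passed in every fit that left out 1 library. The matching share over all genes is not given here, so this count does not set the members apart. At the thresholds of the study, 0 of the 11 entries passed for day 1 against day 0 (0.738% of all genes passed), day 2 against day 1 (1.47%), day 3 against day 2 (1%) and day 3 against day 0 (12%). The count was also 0 for day 4 GFP-negative against day 3 (2.88%), the day 5 gate (5.01%) and day 5 against day 4 in GFP-positive (1.49%) and GFP-negative cells (1.27%). That rule left 2 for day 4 GFP-positive against day 3, 1 for the day 4 gate and 4 for day 5 GFP-positive against day 0. A fit of the compared groups alone gave 0 for day 1 against day 0, 7 for day 2 against day 1, 4 for day 3 against day 2, 3 for day 3 against day 0, 6 for the day 4 gate, 2 for day 5 against day 4 GFP-negative cells and 3 for the interaction, where 0.415%, 34.6%, 25.6%, 26.6%, 21.8%, 14.4% and 3.81% of all genes passed. Quantile normalisation gave 4 for day 3 against day 2, 5 for the day 5 gate and 3 for the interaction, with 14.6%, 14% and 1.14% of all genes, and turned Pkm in day 4 GFP-positive cells against day 3 to 0.0075 (adjusted p = 0.979). Without a filter on low values, 1 passed for day 5 against day 4 GFP-positive cells, with 4.73% of all genes. Leaving out day 0 replicate 1, an alternative added once the data had been seen, 4 passed for day 3 against day 2, 5 for the day 4 gate, 4 for day 5 against day 4 in each gate and 2 for the interaction, with 24.3%, 22.4%, 15.4% (GFP-positive), 18.1% (GFP-negative) and 3.14% of all genes. In the fit of all libraries these shares were 14.4%, 15.7%, 9.80%, 10.2% and 1.10%, with 10.0% for day 1 against day 0, 16.6% for day 2 against day 1, 43.6% for day 3 against day 0 and 16% for the day 5 gate. Leaving out 1 library of the compared groups at a time gave 2 to 4 entries for day 2 against day 1 and 1 to 2 for day 5 against day 4 GFP-positive cells, with 11.0% to 14% and 6.81% to 7.74% of all genes. The causes were not tested. The lowest value of a main entry was 1490 counts, whereas the smaller Aldoa entry held 11 to 117, where counting error is larger.

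Fitting the replicate number as a block kept 47 of the 48 calls and lost Pfkp for day 2 against day 1, again with no share over all genes beside it. Deviations of libraries with the same number had a mean correlation of -0.00054 over 84 pairs, with 10 over 0.1. For the gates of 1 day, sorted from the same triplicate samples, the 6 pairs with the same number had correlations of -0.108 to 0.147, so a pairing by number was not shown. A replicate block within each sorted day, added once the data had been seen, kept all 6 calls of the gate comparisons and the interaction, and lost 2 of the 5 hypoxia response calls of the day 4 gate.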
